A study of Homo sapiens with 6 samples.

Results

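RNA of the human erythroleukemia line HEL was sequenced after lentiviral transduction with a hairpin against TMIGD2 (shTMIGD2, 3 libraries) or a non-targeting control hairpin (shCtrl, 3 libraries). All 6 libraries came from the same line, grown in the same medium, and were made from poly(A) RNA with a directional kit. The labels do not say which of the hairpins that the study made against TMIGD2 was used, and an effect of TMIGD2 and an effect of the hairpin itself cannot be told apart in this design. Described here are 10 genes of the TGF-beta and BMP pathway, chosen by name and found by their symbol among the 31999 genes listed. They are the receptors TGFBR1, TGFBR2, TGFBR3 and ENG, the signal transducer SMAD3, the inhibitors SMAD6 and SMAD7, and the target genes ID1, ID2 and ID3.

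TGF-beta and the bone morphogenetic proteins (BMPs) are secreted ligands that bring together type I and type II receptors, which are serine/threonine kinases. The activated type I receptor phosphorylates receptor-regulated SMADs, which enter the nucleus with SMAD4, while SMAD6 and SMAD7 are induced by the same signals and inhibit them. ID genes are classical BMP targets, and their products bind basic helix-loop-helix (bHLH) proteins and keep them off DNA. In blood formation the pathway is known for restraining the cycling of stem and progenitor cells and for promoting erythroid maturation.

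The value given for each gene is the authors' mean log2 CPM, that is, the log2 of fragment counts scaled to the library total (CPM), averaged over the 6 libraries of both hairpins. The table has no value per library. Neither a spread nor a standard error could therefore be given, no difference between 2 genes could be tested, and the sequencing depth behind each value is unknown. The levels pool shCtrl and shTMIGD2 cells, so they describe which pathway genes HEL cells carried across the experiment and not what the knockdown changed. A long transcript gives more fragments than a short one at the same number of molecules, so pathway genes were set against each other as log2 CPM per kb of exons. Counts of genes at 1 CPM or more, marker levels and values given as mean log2 CPM are as listed, with no correction for length. In bulk RNA, fewer cells with a transcript and less of it per cell cannot be told apart.

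The erythroleukemia label was checked on marker genes. All 10 erythroid markers were at 1 CPM or more, from a mean log2 CPM of 2.46 for the embryonic globin HBZ to 11.09 for the transferrin receptor TFRC. Of the 6 megakaryocyte markers listed, 5 reached 1 CPM, and the integrin subunit ITGA2B was the highest at 10.54. The summed level was 4257 CPM over the erythroid markers and 2105 CPM over the megakaryocyte markers. It was 3.87 CPM over 5 fibroblast markers, 5.15 CPM over the 2 B cell markers listed, 7.82 CPM over the 2 T cell markers listed and 21.6 CPM over 3 monocyte markers. The 3 endothelial markers reached 51.3 CPM together, most of it from KDR, with CDH5 at a mean log2 CPM of 0.31. ENG is also an endothelial gene, and the part of these markers in its level was not tested. TMIGD2 itself had a mean log2 CPM of 4.08 over both hairpins, and HHLA2, which encodes its ligand, was at -3.66, close to the lowest value listed, -3.76.

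At a level of 1 CPM, 9 of the 10 genes were expressed. This compares with 43.8% of all genes listed and 69.1% of the 16339 protein-coding genes matched by symbol to GENCODE 44. The exception was TGFBR3, at a mean log2 CPM of -0.73. The median level per kb of the 10 genes was 3.05, against 1.13 for protein-coding genes. Per kb of exons, the 10 genes ranged from ID1 with 96.5% of coding genes below it to TGFBR3 with 20.7% below.

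**Figure D1:**
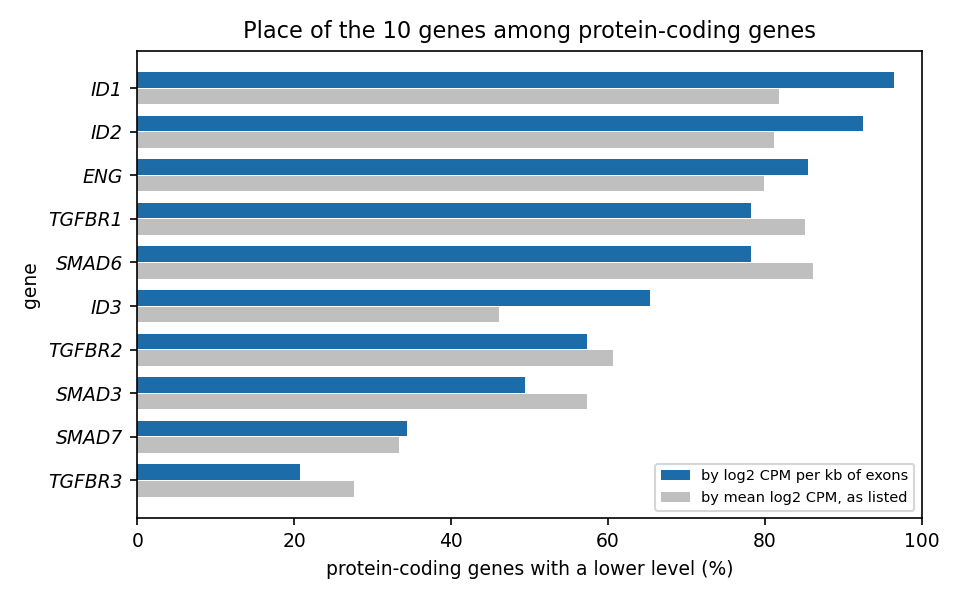
Share of protein-coding genes with a lower level than each of the 10 genes (x axis, percent), by log2 CPM per kb of exons (blue bars) and by mean log2 CPM as listed (grey bars), all as means over the 6 libraries, with no error available. ID1 and ID2 stand highest per kb, above 96.5% and 92.5% of coding genes, and SMAD7 and TGFBR3 lowest, above 34.3% and 20.7%.

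ID1 and ID2 held the highest levels per length of the 10 genes. ID1 (ENSG00000125968.9, chromosome 20, 31605283 to 31606515 on the plus strand, GRCh38) had a mean log2 CPM of 6.29, or 78.0 CPM. Its annotated exons together cover 1233 bases, the whole span of the gene. The longest transcript has the same length, so it gives no separate check of the length of ID1. Per kb the level of ID1 was 5.98 on the log2 scale. ID2 (chromosome 2, 8678845 to 8684461, plus strand) was listed at almost the same value, 6.22, but its exons span 2213 bases, which gave a level per kb of 5.07. ID1 was thus 1.88-fold higher than ID2 per kb, although the listed values differed by only 0.07 on the log2 scale.

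ID3 (chromosome 1, 23557926 to 23559501, minus strand) was the low member of the expressed ID genes. It had a mean log2 CPM of 3.14 and a level per kb of 2.56, 10.8-fold below ID1 and 5.73-fold below ID2. With the longest transcript as the length, it was 6.83-fold below ID1 and 3.94-fold below ID2. ID4, which completes the family, was at a mean log2 CPM of -2.93, against a lowest listed value of -3.76. Per kb, the order within the family was ID1, ID2, ID3 and ID4.

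Of the bHLH factors that ID proteins bind or oppose, 5 genes were examined, and each was at 1 CPM or more. The highest per kb was LYL1, a blood bHLH factor, at 6.51, followed by its relative TAL1, which drives erythroid and megakaryocyte genes, at 6.21. The E protein genes TCF3 and TCF12, whose products pair with both and are direct partners of ID proteins, were at 4.45 and 3.95 per kb. The third E protein gene, TCF4, was the lowest of the 5 at 1.26. The level per kb of ID1 lay between TAL1 and TCF3, and that of ID2 lay between the same genes.

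Among the type I receptors, TGFBR1 (chromosome 9, 99104038 to 99154192, plus strand), the kinase that phosphorylates SMAD2 and SMAD3, had the highest level. Its mean log2 CPM was 6.55, or 93.7 CPM, and its level per kb was 3.55. The activin receptor ACVR1B came next at 3.05 per kb, then ACVR1 at 1.66 and BMPR1A at 0.86, which both carry BMP signals. ACVRL1, the type I receptor that works with endoglin in endothelium, was at -0.98 per kb. BMPR1B and ACVR1C did not reach 1 CPM, so 5 of the 7 type I receptor genes did, 71.4% against 69.1% of protein-coding genes.

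TGFBR2 (chromosome 3, 30606601 to 30694142, plus strand) encodes the type II receptor that binds TGF-beta and activates TGFBR1. Its mean log2 CPM was 4.67, or 25.5 CPM, and its level per kb was 1.90. TGFBR1 was 3.15-fold higher than TGFBR2 per kb. BMPR2, the BMP type II receptor, was at 1.88 per kb and ACVR2B, an activin and BMP receptor, at 1.68, both close to TGFBR2. AMHR2, the receptor for anti-Müllerian hormone, was the highest of the class at 3.21 per kb. By mean log2 CPM as listed, AMHR2 at 5.08 was below ACVR2B at 5.66 and BMPR2 at 5.52, and all were above TGFBR2. All 5 type II receptor genes were at 1 CPM or more, with ACVR2A the lowest at -2.54 per kb.

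The co-receptors differed widely. ENG (chromosome 9, 127815013 to 127854658, minus strand) encodes endoglin, which presents BMP9 and TGF-beta to their receptors and is also found on early erythroid cells. It had a mean log2 CPM of 6.14, or 70.4 CPM. Its level per kb of 4.20 was the highest of the 7 genes of its class and above that of any kinase receptor. By mean log2 CPM as listed, TGFBR1 was higher than ENG, at 6.55. TGFBR3 (chromosome 1, 91680343 to 91906335, minus strand) encodes betaglycan, which presents TGF-beta2 and inhibin. At 0.60 CPM it lay 3.03 above the lowest value listed on the log2 scale, and its level per kb was -3.83. ENG was 261-fold higher than TGFBR3 per kb. BAMBI, a pseudoreceptor that blunts TGF-beta and BMP signals, was second in the class at 3.28 per kb.

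The 2 inhibitory SMADs stood far apart. SMAD6 (chromosome 15, 66702236 to 66782849, plus strand), which acts mainly on BMP signals, had a mean log2 CPM of 6.65, or 100.2 CPM. Its level per kb of 3.55 was the highest of the 8 SMAD genes. By mean log2 CPM as listed, SMAD2 was higher than SMAD6, at 7.27. SMAD7 (chromosome 18, 48919853 to 48950965, minus strand), which inhibits TGF-beta and BMP signals by binding the type I receptors, had a mean log2 CPM of 0.62, or 1.53 CPM, and a level per kb of -1.37. SMAD6 was 30.2-fold higher than SMAD7 per kb. With the longest transcript as the length, the ratio was 42.0-fold.

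SMAD3 (chromosome 15, 67063763 to 67195173, plus strand) carries TGF-beta and activin signals and binds DNA directly. It had a mean log2 CPM of 4.40, or 21.1 CPM, over exons of 10011 bases, and a level per kb of 1.08. SMAD2, its partner in the same branch, had a mean log2 CPM of 7.27 over exons of 36426 bases, and was at 2.08 per kb. SMAD2 was 2.01-fold higher than SMAD3 by exon union, 1.36-fold by longest transcript and 7.30-fold with no length correction. On the BMP branch, SMAD5 was at 3.06 per kb, whereas SMAD1 and SMAD9 were under 1 CPM, with mean log2 CPM values of -0.93 and -1.76. SMAD4, the common partner of both branches, was at 1.84 per kb. SMAD5 was thus the only receptor-regulated SMAD of the BMP branch at 1 CPM or more.

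**Figure D2:**
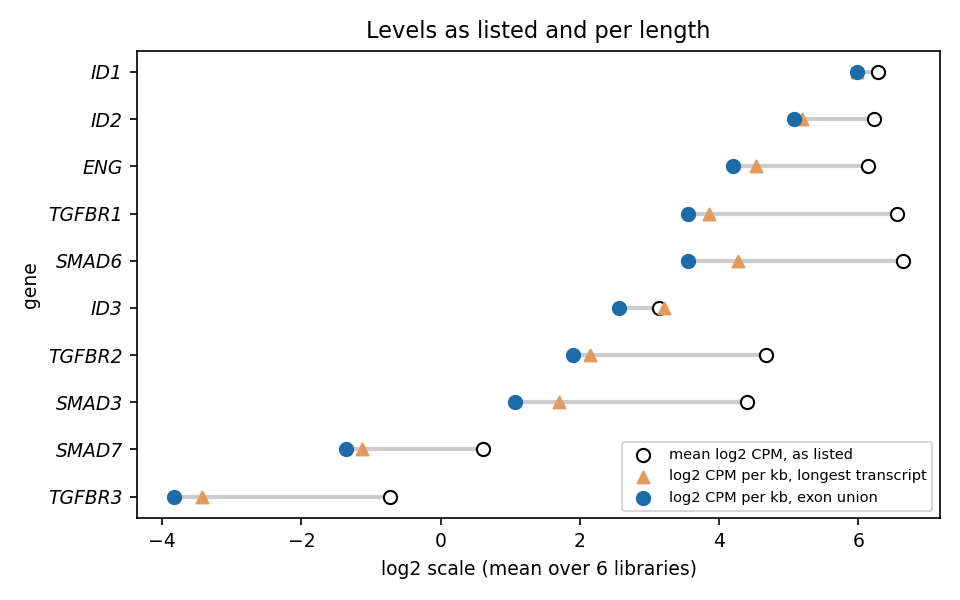
Mean log2 CPM as listed (open circles), log2 CPM per kb of all annotated exons (blue circles) and log2 CPM per kb of the longest transcript (orange triangles) for each of the 10 genes, as means over the 6 libraries. Length moves SMAD6 from 6.65 to 3.55 and ID1 only from 6.29 to 5.98, so ID1 and ID2 lead per kb.

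The genes around the 10 were taken from lists of pathway classes. Of 94 further genes named, 82 were listed and 51 of these, 62.2%, were at 1 CPM or more. The share was 69.1% for protein-coding genes, against which each count by class is to be read. TGFB2 and TGFB3 were at mean log2 CPM values of -1.62 and -1.96, and TGFB1 was not found by its symbol among the genes listed. Of 13 activin, nodal and related ligand genes named, 12 were listed and 5 were at 1 CPM or more, led by GDF11 at 1.45 per kb. Of 15 BMP ligand genes named, 10 were listed. BMP6, the iron-regulated BMP, at 2.77 per kb and BMP8B at 1.51 were the ones at 1 CPM or more.

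Of 14 genes named for extracellular antagonists and latent TGF-beta binding, 12 were listed and 10 were at 1 CPM or more. NRROS and LRRC32, which tether latent TGF-beta to the cell surface, were at 5.32 and 3.53 per kb, and LTBP1, which anchors it in the matrix, was at 5.14. Its relatives LTBP4, LTBP3 and LTBP2 were at 3.00, 0.39 and -3.00. Against 69.1% of protein-coding genes, 92.3% of the listed intracellular regulators of SMADs were at 1 CPM or more, 12 of 13 (14 named). Among them STRAP, an adaptor that holds SMAD7 at the receptor, was at 6.97 per kb, and the SMAD corepressor genes SKI and TGIF2 were at 4.38 and 4.31.

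Of the 9 textbook TGF-beta target genes reported, 7 were listed and 4 of these, 57.1%, were at 1 CPM or more. Among protein-coding genes the share was 69.1%. JUNB, an immediate early gene, was the highest of the 7 at 5.87 per kb, followed by KLF10 at 3.35, TGFB1I1 at 2.23 and CDKN1A at 1.80. The matrix-related targets were low, at -3.97 per kb for COL1A1, -4.92 for FN1 and -5.57 for TGFBI. SMAD7, itself a direct target, was at -1.37. ID1, ID2, ID3 and SMAD6, which are targets of the BMP branch, were each at 2.56 per kb or more. The remaining ID gene, ID4, was at -4.88 per kb.

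**Figure D3:**
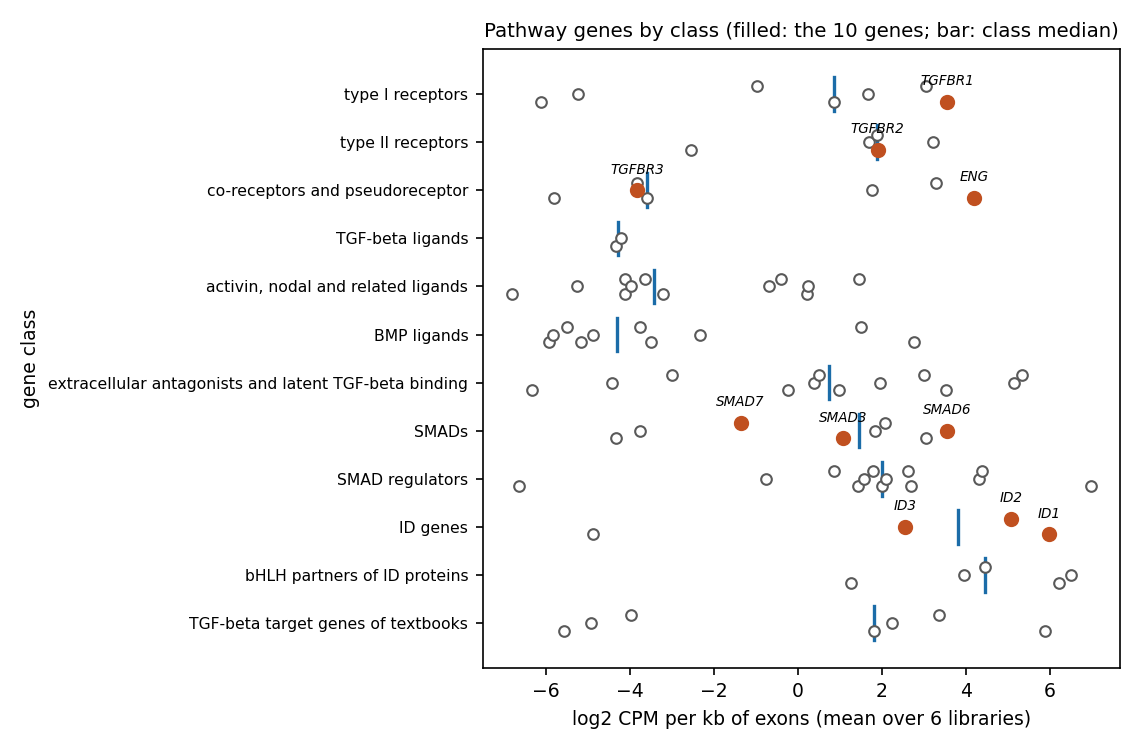
Log2 CPM per kb of exons (x axis, means over the 6 libraries) of each listed pathway gene, by class, with the 10 genes filled and named, the other genes open and the class median as a bar. ENG and TGFBR3 lie at 4.20 and -3.83 within the co-receptor class, and the listed TGF-beta and BMP ligand genes lie mostly below -2. Only 2 of 3 TGF-beta ligand genes, without TGFB1, and 10 of 15 BMP ligand genes were listed.

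The promoter windows of the inhibitory SMADs and of the ID genes are printed here because these genes are direct pathway targets whose levels differed within each family. Sequences are from RefSeq (GRCh38.p14), 250 bases before to 50 bases after the first start listed for each gene, on the strand of the gene. All 10 genes had a window. For the SMADs the capitals mark the palindromic SMAD binding element GTCTAGAC, the SMAD element CAGAC and the E-box CANNTG, the site of bHLH proteins. The windows are chr15:66701986-66702285 (plus) for SMAD6 and chr18:48950916-48951215 (minus) for SMAD7.
SMAD6: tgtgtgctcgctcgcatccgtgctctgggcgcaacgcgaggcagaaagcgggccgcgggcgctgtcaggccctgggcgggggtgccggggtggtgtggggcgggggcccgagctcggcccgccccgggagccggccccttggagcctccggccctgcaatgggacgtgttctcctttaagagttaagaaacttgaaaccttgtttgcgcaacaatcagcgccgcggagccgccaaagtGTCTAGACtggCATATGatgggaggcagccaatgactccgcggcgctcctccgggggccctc
SMAD7: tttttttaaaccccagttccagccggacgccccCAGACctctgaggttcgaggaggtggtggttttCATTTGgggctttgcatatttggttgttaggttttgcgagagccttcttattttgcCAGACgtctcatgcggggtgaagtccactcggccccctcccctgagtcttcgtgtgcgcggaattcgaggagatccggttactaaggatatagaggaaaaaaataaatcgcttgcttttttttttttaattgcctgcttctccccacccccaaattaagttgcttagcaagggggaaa

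In the SMAD6 window, GTCTAGAC began 12 bases before the start and an E-box (CATATG) spanned the start. This palindrome was found in 0.201% of the 27305 first windows of all genes, and in none of the first windows of the other 9 genes. The SMAD7 window had CAGAC at 217 and at 128 bases before the start, with an E-box (CATTTG) at 184. CAGAC was found in 45.0% of all windows and in 4 of the 10 genes, TGFBR1, SMAD3, SMAD7 and ID3. E-boxes were found in 68.9% of all windows and in the first windows of 6 of the 10 genes. The window of SMAD7 had 48.3% G and C, against 68.0% for SMAD6 and a median of 58.3% over all windows. SMAD7 has 3 windows, of which only the first is described here, and SMAD6 has 1. A match of letters does not show that a factor binds there. Bases outside the windows were not searched, so a motif missing from a window may lie elsewhere near the gene.

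For the ID genes the capitals mark the E-box CANNTG, the SMAD element CAGAC, the short CREB family site TGACG and, in ID1, the TATA box TATAAA. The windows are chr20:31605039-31605338 (plus) for ID1, chr2:8681806-8682105 (plus) for ID2 and chr1:23559452-23559751 (minus) for ID3.
ID1: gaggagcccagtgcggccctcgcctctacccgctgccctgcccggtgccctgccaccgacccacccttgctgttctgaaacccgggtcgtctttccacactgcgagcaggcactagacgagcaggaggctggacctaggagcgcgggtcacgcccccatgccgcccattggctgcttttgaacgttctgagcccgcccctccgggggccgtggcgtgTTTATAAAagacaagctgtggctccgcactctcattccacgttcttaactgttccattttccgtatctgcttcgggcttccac
ID2: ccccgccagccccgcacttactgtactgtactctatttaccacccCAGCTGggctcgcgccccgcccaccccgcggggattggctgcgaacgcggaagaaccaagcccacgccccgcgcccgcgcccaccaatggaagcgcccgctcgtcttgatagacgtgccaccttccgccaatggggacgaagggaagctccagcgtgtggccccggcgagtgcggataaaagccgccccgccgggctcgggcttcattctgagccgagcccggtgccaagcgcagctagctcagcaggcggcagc
ID3: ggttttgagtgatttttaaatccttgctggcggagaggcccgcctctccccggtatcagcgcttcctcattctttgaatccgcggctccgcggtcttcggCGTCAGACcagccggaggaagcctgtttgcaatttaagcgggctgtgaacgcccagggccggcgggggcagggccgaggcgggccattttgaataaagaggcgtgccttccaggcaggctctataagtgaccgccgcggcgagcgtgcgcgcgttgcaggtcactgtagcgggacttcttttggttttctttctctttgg

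The ID1 window held TATAAA 31 bases before the start, overlapping the same motif on the other strand. TATAAA was found in 12.0% of all windows and in no other first window of the 10 genes. The ID2 window held an E-box (CAGCTG) 205 bases before the start. In the ID3 window a short CREB site, read on the other strand, began at 150 bases before the start and overlapped CAGAC. The short CREB site was found in 25.0% of all windows and, among the 10 genes, in the first window of ID3 only. The full element TGACGTCA, in 1.98% of all windows, and the BMP-type element GGCGCC, in 19.0%, were found in none of the 5 windows printed, and GGCGCC was in the first window of SMAD3 only. The GATA motifs AGATAA and TGATAA, in 10.5% and 7.76% of all windows, were in no first window of the 10 genes. Other forms of the GATA motif were not searched, and the printed ID2 window holds one of them, TGATAG. All motifs were searched on both strands. Some genes have further starts, which give 24 windows in all for the 10 genes, and the SMAD palindrome was in 1 of these 24. Other motifs did occur in windows of further starts. The TATA box was in SMAD7, the short CREB site in TGFBR1 and SMAD3, and the BMP-type element and an E-box in TGFBR1. The GATA motifs were each in 1 of the 24 windows, the first named in TGFBR1 and the second in SMAD3. The full CREB element was in none.

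Exons that overlap those of another gene in GENCODE 44 were found for 3 of the 10 genes. Exons of an antisense RNA overlapped 6.55% of the exon bases of ID2 (ID2-AS1), and unnamed antisense RNAs overlapped 8.15% of ENG and 1.82% of SMAD3. ID2-AS1 was listed at a mean log2 CPM of -0.89. Whether fragments were counted by strand is not given in the sources used here. No other annotated gene shared exon bases with the 10 genes.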

How the data were processed

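RNA of 3 shCtrl and 3 shTMIGD2 HEL libraries was sequenced, grouped by their titles. The paper's methods and the submitters' processing notes name STAR 2.6.1b on hg38 and HTSeq 0.6.1 with a refSeq annotation. The authors deposited 1 table of 31999 genes with the column names of an edgeR test. The authors' log2 value (logCPM), a pooled level over the 6 libraries, was the measurement used. The paper's methods describe DESeq2 by the authors on genes with an average count of at least 1 in either group, while the table has edgeR's columns. Whether that filter was applied to this table, and its normalization and prior count, are not given in the sources used here. The table's 4 other value columns (log2 fold change, F, p-value and adjusted p-value of the authors' comparison) were not used. The planned edgeR test needs counts per library and was not run.

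CPM is 2 to the power of the mean log2 CPM. Lengths and positions come from GENCODE 44 (GRCh38), as the union of a gene's annotated exons. Of the gene names, 71.84% matched by symbol, and 90.94% of those at 1 CPM or more, including all 10 genes. A spreadsheet had turned 24 names into dates. Ranks used protein-coding genes matched by symbol. Helper functions were tested on simulated data. Python 3.11.15, pandas 2.3.3 and matplotlib 3.10.9 were used.

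The genes and pathway lists were chosen with earlier results of these data known. Named were the 10 genes, TMIGD2 and HHLA2, and of each list mainly the genes with the highest level. Other list genes were named after their values were seen. 1 gene of the target list is not reported here.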

Additional observations from a re-analysis of the deposited data

How the results depend on the processing

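The count of genes at 1 CPM or more, 9 of 10, became 10 at 0.5 CPM and 8 at 5 CPM. By mean log2 CPM as listed, 7 of the 10 genes lay above the 75th percentile of all genes listed, 5 above that of genes at 1 CPM or more and 5 above that of protein-coding genes. With the longest transcript as the length, 8 genes kept their place in the order of levels per length, the exceptions being TGFBR1 and SMAD6, which changed places and whose levels per kb by exon union were 3.55 for both. With no length correction 2 genes kept their place, SMAD7 and TGFBR3, since the exon unions range from 1233 to 10011 bases. GENCODE lengths cover all annotated exons, whether or not HEL cells use them.

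No paired analysis was possible because the table has no values per library. For the same reason DESeq2, no filter on low counts and leaving out each library were not run.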
